A study of Mus musculus with 24 samples.

Results

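The 44 genes described here encode the enzymes that remove superoxide and peroxides, the enzymes that make, recycle and use glutathione, and the pentose phosphate and malic enzymes that supply NADPH, together with the NRF2 regulator and its inhibitor KEAP1. They were chosen by name, with earlier results of these data known. All 44 were among the 20351 protein-coding genes of the deposited count table. Of these, 43 passed the filter on low counts, as did 14411 genes in all. The exception was Gstm4, a glutathione transferase gene with group means of 0.167 to 1.17 estimated counts, which was not tested.

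RNA was measured by poly(A) sequencing in 24 libraries of HL-1 cells, a cardiomyocyte-derived line from mouse. Cells received adenovirus at 30 infectious units per cell that carried either a hairpin against MuRF1 (the product of Trim63, a muscle ubiquitin ligase) or a scrambled hairpin, and 48 h later underwent cyclic stretch for 60 min (15% at 1 Hz) or stayed unstretched. This gave 4 groups of 6 libraries, formed by the hairpin (control or knockdown) and by stretch (absent or present). All groups therefore carried virus and a hairpin, and all had been moved to serum-free DMEM before the experiment. Its direction is given as uniaxial and as biaxial in different labels. They do not say that replicates were separate cultures, so the p-values cover only the spread among these libraries, part or all of which may be technical. The number inside each library code is the same throughout a group and different in every other group. Should it mark a plate or a batch, its effect and that of the group cannot be told apart.

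Superoxide is converted to hydrogen peroxide by superoxide dismutases, and the peroxide is then reduced by catalase, glutathione peroxidases and peroxiredoxins. Glutathione peroxidases and glutathione transferases draw on glutathione, which is made by glutamate-cysteine ligase and glutathione synthetase and is kept reduced by glutathione reductase. Peroxiredoxins draw mainly on thioredoxin and its reductase. Both reductases take electrons from NADPH, which the oxidative pentose phosphate pathway and cytosolic malic enzyme supply. NRF2, held back by KEAP1 in unstressed cells, binds antioxidant response elements and drives many of these genes. Heart muscle has a high oxygen turnover and depends on this defence, particularly in and around mitochondria.

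Libraries held 23.6 to 54.8 M estimated counts. Stretched control replicate 5 was the smallest, and the other 23 held at least 37.7 M. For 35 of the 43 tested genes this library lay outside the range of the other 5 stretched controls, mostly below it. Several results that include this library, but not all, are therefore also given without it. Trim63, the targeted gene, fell with the hairpin, and its control and knockdown libraries did not overlap. Levels are given as CPM, counts scaled to a common library size by TMM. Non-stretched cells held 639.7 ± 68.1 CPM of Trim63 with the scrambled hairpin and 55.7 ± 1.17 CPM with the MuRF1 hairpin (mean ± SD, n = 6), and stretched cells 781 ± 81.7 and 68.5 ± 7.91 CPM. All 10 cardiomyocyte markers checked were detected, with a summed level of 2260 to 2552 CPM in non-stretched controls. In non-stretched knockdown cells that sum was 1106 to 1202 CPM.

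Promoter sequences were looked at for the antioxidant response element, because NRF2 binds it. RefSeq promoter sequences on GRCm38.p6, from 250 bases before to 50 bases after the start site, were matched for 37 of the 44 genes. Those not matched were Hmox1, Gclc, Gsr, Prdx6, Sod3, Gsta4 and Gstt2. The core of the element, searched on both strands as TGACNNNGC, was present in 12 of 37 promoters (32.4%) and in 3781 of all 27025 promoters in the table (14.0%). Of the genes with a promoter, 8 of 23 that were lower after knockdown without stretch held it, as did 2 of 6 that were higher and 2 of 7 that did not pass the test. The motif was therefore found in each of these sets, and a match is a description of the letters only. The windows below, 25 bases each and written 5′ to 3′ on the strand that reads the motif, show it for Nfe2l2 itself and for genes at different steps of the pathway, with the motif in capitals.

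Nfe2l2, chr2:75704887-75704911, minus strand: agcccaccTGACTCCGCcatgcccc

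Gclm, chr3:122245415-122245439, minus strand: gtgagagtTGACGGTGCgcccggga

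Prdx1, chr4:116685458-116685482, minus strand: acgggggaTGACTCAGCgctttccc

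Gstm5, chr3:107895804-107895828, plus strand: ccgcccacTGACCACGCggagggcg

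G6pdx, chrX:74428921-74428945, plus strand: gtgtgcttTGACTGAGCtgacccgc

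Pgd, chr4:149166063-149166087, minus strand: ttcagagcTGACATTGCactgatcg

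Me1, chr9:86695904-86695928, minus strand: tgccgccgTGACTCAGCgcttctcg

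The elements of Prdx1 and Me1 share the letters TGACTCAGC. They also contain TGACTCA, the site bound by AP-1 factors, so that both motifs overlap there. TGACTCA was present in 5 of the 37 promoters (13.5%) and in 5.95% of all promoters.

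Levels were compared between genes only per kilobase of transcript. In non-stretched control cells the order was led by cytosolic superoxide dismutase, Sod1, at 943 ± 38.8 CPM per kb (SD, n = 6), and Prdx1, a cytosolic peroxiredoxin, at 598 ± 42.2 CPM per kb. Gpx3, a secreted glutathione peroxidase, followed at 376 ± 14.8 CPM per kb, and Gpx4, which reduces lipid peroxides in membranes, came next at 347 ± 11.5 CPM per kb. Libraries of neighbours in this order overlapped from Gpx3 to Txn1, whereas Sod1, Prdx1 and Gpx3 were separate from each other. At the other end stood Mgst1, a membrane-bound transferase, at 1.62 CPM per kb, and the theta-class transferases Gstt2 at 0.514 CPM per kb and Gstt3 at 0.317 CPM per kb. After knockdown without stretch Gpx3 stood at rank 7 of 43, at 154 CPM per kb, and Sod3, the extracellular superoxide dismutase, moved from rank 35 to rank 40. Sod1 and Prdx1 kept their places in all 4 groups.

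**Figure D1:**
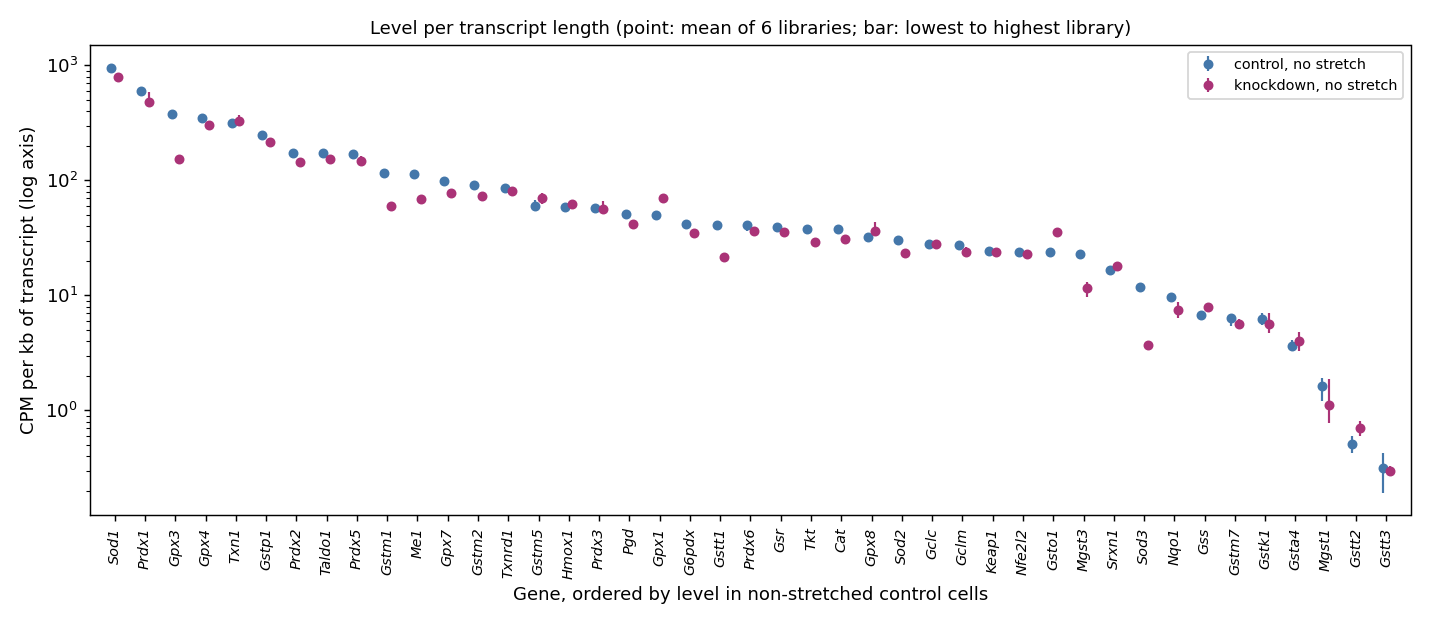
Level of the 43 tested genes in CPM per kb of transcript (log axis), ordered by the level in non-stretched control cells; points are means of 6 libraries and bars run from the lowest to the highest library. Sod1 and Prdx1 lead in control and knockdown cells alike, and Gpx3 drops from 376 to 154 CPM per kb.

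Most of these genes were lower in MuRF1 knockdown cells than in control cells. Without stretch, edgeR's quasi-likelihood test with Benjamini-Hochberg adjustment over all 14411 genes called 34 of the 43 at an adjusted p below 0.05, 26 of them lower and 8 higher. The background was high, since 57.8% of all tested genes were called, 29.7% lower and 28% higher. The median log2 fold change was -0.20 over the 43 genes and 0.01 over all tested genes. With stretch, 29 of the 43 were called, 26 lower and 3 higher, against 52% of all tested genes, 26.9% lower and 25.1% higher. The medians there were -0.18 and 0.00. Without stretched control replicate 5, 30 of the 43 were called, 28 lower and 2 higher, against 55.4% of all tested genes. The medians were then -0.22 and 0.00. These genes were chosen with earlier results of these data known, so such shares are a description and not a test of the pathway. In bulk RNA, fewer cells that express a gene and less RNA of it per cell cannot be told apart.

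The comparisons without and with stretch share no library. Of the 26 genes lower without stretch, 25 were also lower with stretch, which is 96.2% of either list. Gstm7 was called without stretch but not with it, and Prdx3 with stretch but not without it. Whether their changes differ between the comparisons is the interaction given at the end, which called neither, and both calls moved with the alternatives given below for each gene. The 3 genes that were higher with stretch, Gsto1, Gpx1 and Gstm5, were all among the 8 that were higher without it (37.5%), and no gene had opposite calls. Knockdown and control libraries did not overlap at all for 22 of the 43 genes without stretch, 19 of them lower, where 37.8% of all tested genes did not overlap (21.5% lower). With stretch this held for 16 genes, 14 of them lower, against 31.9% (17.3% lower). Without stretched control replicate 5 it held for 30 genes, 28 of them lower, against 43% of all tested genes (24.5% lower). Most changes were small. Past 1.5-fold there were 6 genes without stretch and 7 with stretch, all lower, which is 14.0% and 16.3% of the 43. Of all tested genes 7.40% and 6.20% were called lower past that size, and 924 and 729 genes higher. Past 2-fold there were only Sod3 and Gpx3 in either case (4.65% of the 43), against 3.11% and 2.42% of all tested genes called lower.

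**Figure D2:**
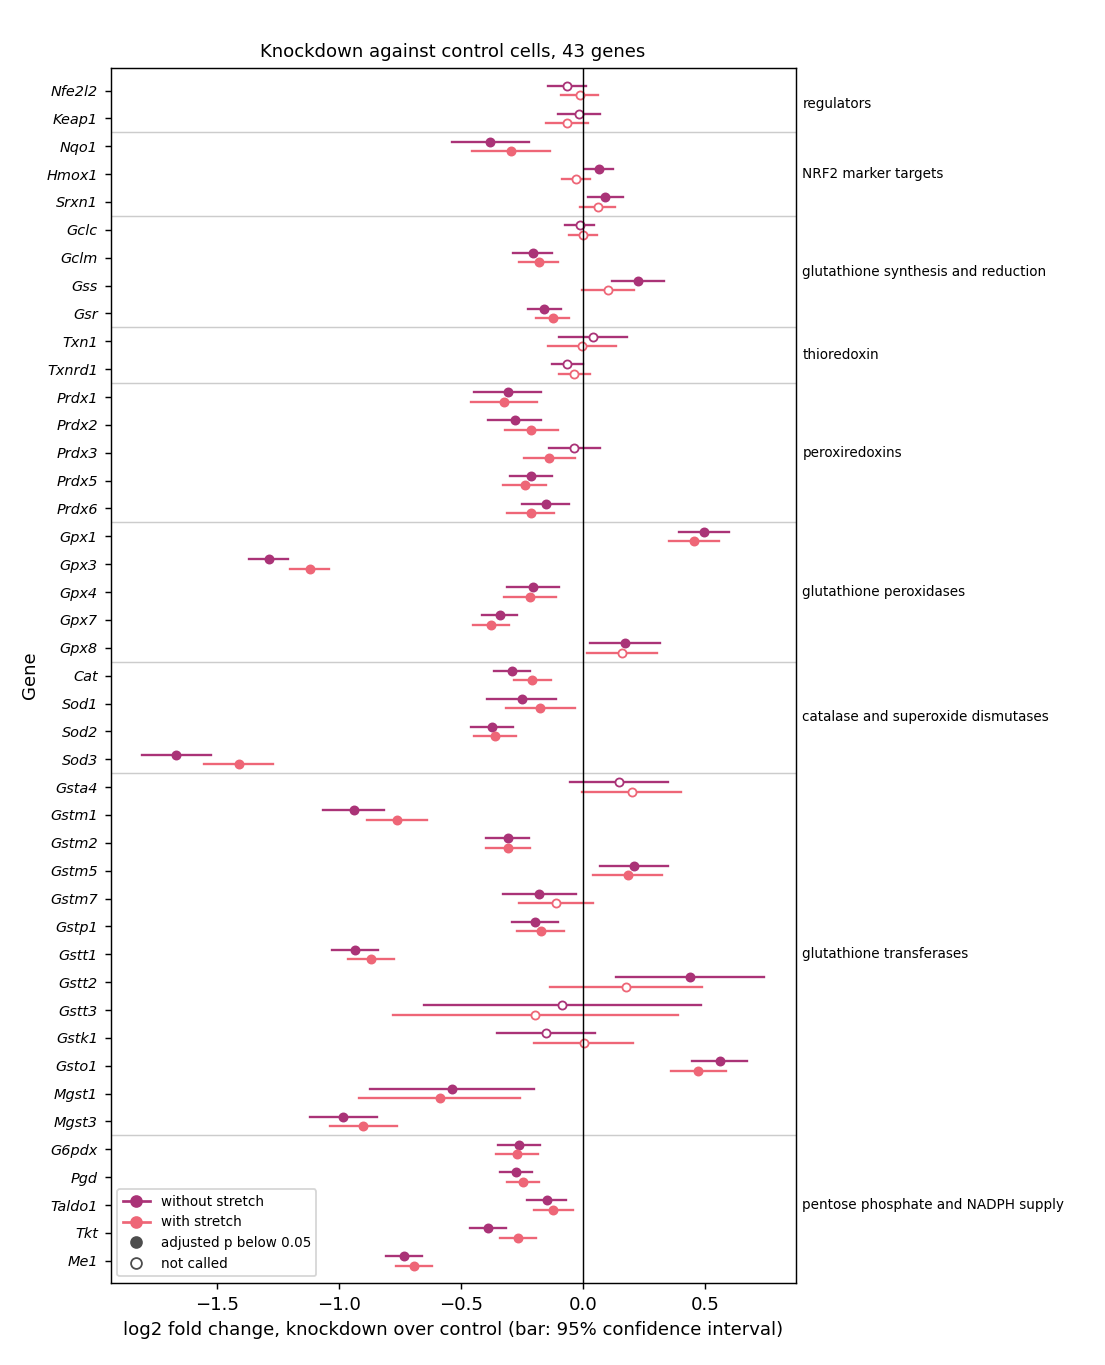
Log2 fold change of knockdown over control cells for each of the 43 tested genes, grouped by role, without stretch (purple) and with stretch (pink); bars are 95% confidence intervals and filled points have an adjusted p below 0.05. Sod3 and Gpx3 lie farthest left, and the pentose phosphate genes, catalase and the superoxide dismutases all lie left of 0.

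All 3 superoxide dismutases and catalase were lower in knockdown cells, with and without stretch. The change was by far largest for Sod3 (ENSMUSG00000072941, chr5:52363791-52371418, plus strand, GRCm38), whose product is secreted and bound to the cell surface and matrix. Without stretch, Sod3 ran from 40.7 to 46.5 CPM (median 44.9) in control libraries and from 13.2 to 15.1 CPM (median 13.7) in knockdown libraries. The groups were far apart, and Sod3 was 68.5% lower, a log2 fold change of -1.67 (adjusted p = 1.29e-17, SE 0.0677). With stretch, Sod3 ran from 33.3 to 47.0 CPM (median 41.6) in controls and from 13.3 to 16.5 CPM (median 15.4) after knockdown, again with no overlap, and the log2 fold change was -1.41 (adjusted p = 6.04e-16, SE 0.0673).

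Sod2, the manganese enzyme of the mitochondrial matrix, fell from 178 ± 4.87 to 137 ± 4.79 CPM without stretch (mean ± SD, n = 6 each). Its log2 fold change was -0.37 (adjusted p = 9.95e-09, SE 0.0410). With stretch the log2 fold change of Sod2 was -0.36. Catalase (Cat), the peroxisomal enzyme that splits hydrogen peroxide, fell by 0.29 on the log2 scale without stretch and by 0.21 with it. Control and knockdown libraries did not overlap for Sod2 or Cat in either comparison. Sod1 fell by 0.25 without stretch, with no overlap, and by 0.18 with stretch, with overlap. The second of these calls was near the threshold. Its adjusted p was 0.0320, and over 9 alternative analyses it ranged from 1.24e-07 to 0.0937, with 3 of them past 0.05. Stretched control replicate 5 had 414 CPM of Sod1, the other stretched controls 589 to 639 CPM and the stretched knockdown libraries 495 to 538 CPM. Without it the groups did not overlap and Sod1 fell by 0.26 and passed the test. Of the 31-base sequence words of Sod1, 35.4% occur in other annotated genes, so reads could have been divided with near-identical copies. Summed over the 3 genes, superoxide dismutase RNA was 827 ± 31.6 CPM in non-stretched controls and 659 ± 31.8 CPM in non-stretched knockdown cells.

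The 5 glutathione peroxidases moved in both directions. Gpx3 (ENSMUSG00000018339, chr11:54902453-54910377, plus strand, GRCm38) is the form found in plasma and extracellular fluid, and Gpx1 (ENSMUSG00000063856, chr9:108338903-108340343, plus strand) is the main cytosolic form. Without stretch, Gpx3 ran from 566 to 632 CPM (median 600.2) in controls and from 233 to 262 CPM (median 246) in knockdown cells, a log2 fold change of -1.29 (adjusted p = 2.30e-20, SE 0.0387). With stretch it ran from 513 to 609.6 CPM (median 603) and from 259.6 to 284 CPM (median 266), a log2 fold change of -1.12 (adjusted p = 7.52e-19, SE 0.0386). No knockdown library reached the lowest control library in either comparison, and Gpx3 fell by 59.1% and 54.0%.

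Gpx1 went the other way. Without stretch it ran from 39.2 to 43.4 CPM (median 42.0) in controls and from 56.6 to 64.3 CPM (median 58.1) in knockdown cells, a log2 fold change of 0.50 (adjusted p = 1.53e-09, SE 0.0493). With stretch it ran from 34.2 to 46.3 CPM (median 41.9) and from 54.0 to 59.2 CPM (median 57.6), a log2 fold change of 0.45 (adjusted p = 1.10e-08, SE 0.0495). Every knockdown library was above every control library. Gpx7 and Gpx8 are both linked to the endoplasmic reticulum, yet their values differed in sign. Gpx7 fell by 0.34 without stretch and by 0.38 with stretch, while Gpx8 rose by 0.17 (adjusted p = 0.0338, SE 0.0687) without stretch, with overlapping groups. With stretch Gpx8 lay just past the threshold, at 0.16 (adjusted p = 0.0558, SE 0.0692), and was called in 7 of 9 alternatives, whose adjusted p ran from 0.0217 to 0.135. The highest was that without stretched control replicate 5, where Gpx8 stood at 0.10. Gpx4 fell by 0.21 and 0.22. As the authors' counting could have divided reads with near-identical copies, its value is less certain, because 55.5% of its 31-base words occur in other annotated genes. The summed level of the 5 genes went from 1061 ± 36.0 CPM in non-stretched controls to 670.1 ± 24.8 CPM after knockdown, most of it through Gpx3.

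Peroxiredoxins, which reduce peroxides through a reactive cysteine, were lower throughout, by modest amounts. Without stretch 4 of 5 were called lower and with stretch all 5. Prdx1 ran from 869 to 1019.5 CPM (median 948) in non-stretched controls and from 699 to 927 CPM (median 735) after knockdown, a log2 fold change of -0.31 (adjusted p = 0.000218, SE 0.0651). The ranges overlapped through 1 high knockdown library. Prdx2, another cytosolic form, fell by 0.28, the mitochondrial and peroxisomal Prdx5 by 0.21 and the 1-cysteine form Prdx6 by 0.15 without stretch. Control and knockdown libraries did not overlap for Prdx2 and Prdx5 there. With stretch the 5 log2 fold changes ran from -0.33 (Prdx1) to -0.14 (Prdx3), and all 5 pairs of groups overlapped. Each overlap came from stretched control replicate 5 alone. Without that library no pair overlapped, and the 5 values ran from -0.38 (Prdx1) to -0.19 (Prdx3). Prdx3, the peroxiredoxin of the mitochondrial matrix, passed with stretch (adjusted p = 0.0219), where 9 alternatives gave 8.48e-07 to 0.0848, 2 of them past 0.05. Without stretch its value was -0.04 (adjusted p = 0.551, SE 0.0497). When stretched control replicate 5 and non-stretched knockdown replicate 4 were left out it was -0.08 with an adjusted p of 0.0105, the lowest of 9 alternatives that reached 1.00, and the only one called. Reads of Prdx5 and Prdx2 may be shared, since 25.8% and 14.3% of their 31-base words recur in other genes of the table.

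Thioredoxin, unlike most of the peroxiredoxins, passed the test in neither comparison when all libraries were kept. Txn1 stood at 335 ± 12.7 CPM in non-stretched controls and 344 ± 24.5 CPM after knockdown (mean ± SD, n = 6 each), and its log2 fold change was 0.04 (adjusted p = 0.635, SE 0.0664). With stretch its adjusted p was 0.960, and stretched control replicate 5 had the lowest value of all 24 libraries. Without that library the log2 fold change was -0.08 and the adjusted p 0.0380, and 9 alternatives ranged from 0.0152 to 1.00, with 2 of them called. The stretched groups then did not overlap for Txn1, at 327 to 338 CPM after knockdown against 349 to 356 CPM in controls. Txnrd1, the cytosolic thioredoxin reductase, had log2 fold changes of -0.07 (adjusted p = 0.0688, SE 0.0307) without stretch and -0.04 (adjusted p = 0.330, SE 0.0307) with stretch. Leaving out the same library gave -0.07 with stretch (adjusted p = 0.00596). The stretched groups then did not overlap, at 271 to 282 CPM after knockdown against 285 to 298 CPM in controls. The comparison without stretch does not hold that library, which enters only through the fit shared by all groups. There the value stayed at -0.07, and the adjusted p was 0.00645. Over 9 alternatives the adjusted p ranged from 0.00645 to 0.496 without stretch and from 0.00596 to 0.711 with it.

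Among the genes of glutathione synthesis and recycling, the subunits of the first enzyme parted. Gclc, the catalytic subunit of glutamate-cysteine ligase, stood at 95.8 ± 3.25 CPM in non-stretched controls and 94.9 ± 1.28 CPM after knockdown, with adjusted p values of 0.682 without and 0.994 with stretch. The 95% confidence interval of its log2 fold change ran from -0.07 to 0.04 without stretch. Gclm, the modifier subunit, ran from 86.2 to 96.9 CPM (median 90.2) in non-stretched controls and from 75.3 to 86.6 CPM (median 77.9) after knockdown, a log2 fold change of -0.21 (adjusted p = 4.41e-05, SE 0.0383). With stretch it was -0.18 (adjusted p = 0.000222, SE 0.0383). The ranges of Gclm overlapped slightly in both comparisons, with stretch only through stretched control replicate 5, at 85.4 CPM. The other stretched controls held at least 92.7 CPM of Gclm, and the stretched knockdown libraries at most 87.2 CPM. Gsr, glutathione reductase, fell by 0.16 without stretch, with no overlap, and by 0.12 with stretch.

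Gss, which completes glutathione synthesis, rose where Gclm fell. It ran from 11.7 to 13.2 CPM (median 12.3) in non-stretched controls and from 13.2 to 15.4 CPM (median 14.6) after knockdown, a log2 fold change of 0.23 (adjusted p = 0.000461, SE 0.0511), and the ranges met at 13.2 CPM. With stretch Gss did not pass, at 0.10 (adjusted p = 0.10, SE 0.0513), and 1 of 9 alternatives called it, within a range of 0.0484 to 0.119.

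Transcripts of the regulators changed little. Nfe2l2, which encodes NRF2, stood at 59.3 ± 1.97 CPM in non-stretched controls and 56.6 ± 2.46 CPM after knockdown (mean ± SD, n = 6 each), and its log2 fold change was -0.07 (adjusted p = 0.122, SE 0.0365). With stretch it was -0.01 (adjusted p = 0.776, SE 0.0364). Keap1 had log2 fold changes of -0.02 (adjusted p = 0.742, SE 0.0418) and -0.07 (adjusted p = 0.192, SE 0.0420). NRF2 activity is set mainly by the stability of the protein, which was not measured. The call of Nfe2l2 after knockdown without stretch changed with the libraries kept. Stretched control replicate 5 is in neither group compared and enters only through the fit shared by all groups. Without it the log2 fold change stayed at -0.07, and the adjusted p was 0.0430. When non-stretched knockdown replicate 4 was left out too, the log2 fold change was -0.08 with an adjusted p of 0.00444. Over 9 alternatives in all the adjusted p ranged from 0.00444 to 0.569.

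The genes often read as markers of NRF2 activity did not move together. Nqo1, a quinone reductase, ran from 13.6 to 16.4 CPM (median 15.0) in non-stretched controls and from 9.84 to 13.6 CPM (median 11.3) after knockdown, a log2 fold change of -0.38 (adjusted p = 0.000102, SE 0.0757), and it was again lower with stretch, at -0.30 (adjusted p = 0.00172, SE 0.0757). The highest knockdown libraries reached slightly into the control range, with stretch only through stretched control replicate 5, at 12.4 CPM. The other stretched controls held at least 13.9 CPM of Nqo1, and the stretched knockdown libraries at most 13.1 CPM. Hmox1, heme oxygenase 1, and Srxn1, the sulfiredoxin that repairs overoxidized peroxiredoxins, were slightly higher without stretch, at 0.07 (adjusted p = 0.0402, SE 0.0272) and 0.09 (adjusted p = 0.0254, SE 0.0340). With stretch neither passed, at -0.03 (adjusted p = 0.365, SE 0.0272) and 0.06 (adjusted p = 0.148, SE 0.0342). The Hmox1 value without stretch was 0.10 when no filter on low counts was applied.

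Of the 13 tested glutathione transferases, which attach glutathione to reactive compounds, 7 were lower and 3 higher without stretch, and 6 were lower and 2 higher with stretch. The largest falls were those of Mgst3, a microsomal transferase with peroxidase activity, Gstm1 of the mu class and Gstt1 of the theta class, each by nearly the same amount. Mgst3 (ENSMUSG00000026688, chr1:167371966-167393841, minus strand) ran from 23.5 to 26.7 CPM (median 24.8) in non-stretched controls and from 10.7 to 14.3 CPM (median 12.9) after knockdown, a log2 fold change of -0.98 (adjusted p = 5.74e-13, SE 0.0663). Gstm1 (ENSMUSG00000058135) ran from 111 to 132 CPM (median 123) and from 56.8 to 68.7 CPM (median 64.2), a log2 fold change of -0.94 (adjusted p = 2.41e-13, SE 0.0593). Gstt1 (ENSMUSG00000001663) ran from 40.5 to 47.7 CPM (median 43.7) and from 21.7 to 24.7 CPM (median 22.6), a log2 fold change of -0.93 (adjusted p = 3.18e-16, SE 0.0446). None of the 3 overlapped between groups. With stretch the falls of Mgst3 and Gstt1 were about as large, and that of Gstm1 was somewhat smaller, a difference that the interaction did not call. There the log2 fold changes were -0.90 (adjusted p = 4.54e-12, SE 0.0662) for Mgst3, -0.76 (adjusted p = 2.26e-11, SE 0.0591) for Gstm1 and -0.87 (adjusted p = 2.34e-15, SE 0.0446) for Gstt1, also without overlap.

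Mgst1, the other microsomal transferase, was scarce, with 1.02 to 1.62 (median 1.40) CPM in non-stretched controls and 0.655 to 1.59 (median 0.843) CPM after knockdown, where 1 library was as high as controls. Its log2 fold changes were -0.54 (adjusted p = 0.00580, SE 0.162) without stretch and -0.59 (adjusted p = 0.00262, SE 0.158) with stretch. Gsto1, the omega-class enzyme that reduces rather than conjugates, rose most of the 43 genes. It (ENSMUSG00000025068, chr19:47854970-47864790, plus strand) ran from 26.5 to 29.9 CPM (median 28.4) in non-stretched controls and from 39.1 to 45.4 CPM (median 41.4) after knockdown, a log2 fold change of 0.56 (adjusted p = 7.87e-10, SE 0.0536). With stretch it ran from 23.3 to 31.8 CPM (median 27.9) and from 36.3 to 41.8 CPM (median 39.0), a log2 fold change of 0.47 (adjusted p = 2.75e-08, SE 0.0539), and the groups did not overlap in either comparison. Gstp1, the pi-class enzyme and the most abundant transferase per length, fell by 0.20 and 0.17. Its value is less certain, because it shares 57.8% of its 31-base words with Gstp2 and reads could have been divided between both genes. Gsta4, Gstk1 and Gstt3 passed in neither comparison. The summed level of the 13 genes was 571 ± 15.5 CPM in non-stretched controls and 457 ± 24.3 CPM in non-stretched knockdown cells.

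Genes that lie side by side did not all move alike. The mu-class genes fill 149 kb of chromosome 3 (107895821 to 108044894, GRCm38). At one end Gstm5, on the plus strand, was higher after knockdown, at 0.21 (adjusted p = 0.0102, SE 0.0674) without stretch and 0.18 (adjusted p = 0.0268, SE 0.0678) with stretch. The second call rested on 1 library: without stretched control replicate 5 it was 0.12 with an adjusted p of 0.0505, the highest of 9 alternatives, the lowest being 0.0116. Toward the other end of the cluster, on the minus strand, Gstm7, Gstm6, Gstm2 and Gstm1 were lower without stretch, by 0.18, 0.32, 0.31 and 0.94. Gstm6, which was not among the 44 genes, is given because it lies between them. Gstm7 was called only without stretch (adjusted p = 0.0348), and 5 of 9 alternatives took it past 0.05, within a range of 0.00831 to 0.135. Gstm1 shares 30.4% of its 31-base words with other annotated genes, 13.7% with Gstm3, which was not tested, and Gstm2 shares 10.7% with other genes of the table.

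The theta-class genes fill 63.3 kb of chromosome 10 (75774115 to 75837424). Gstt1 fell, while Gstt2 rose. Without stretch Gstt2 ran from 0.627 to 0.875 CPM (median 0.748) in controls and from 0.877 to 1.19 CPM (median 1.02) after knockdown, with a log2 fold change of 0.44 (adjusted p = 0.0119, SE 0.146), and the groups did not overlap although they nearly met. With stretch Gstt2 did not pass, at 0.18 (adjusted p = 0.344, SE 0.149). Gstt3 was the scarcest of the tested genes and its log2 fold change was -0.09 (adjusted p = 0.809, SE 0.272) without stretch, an error large enough to cover a change of the size seen in Gstt2.

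**Figure D3:**
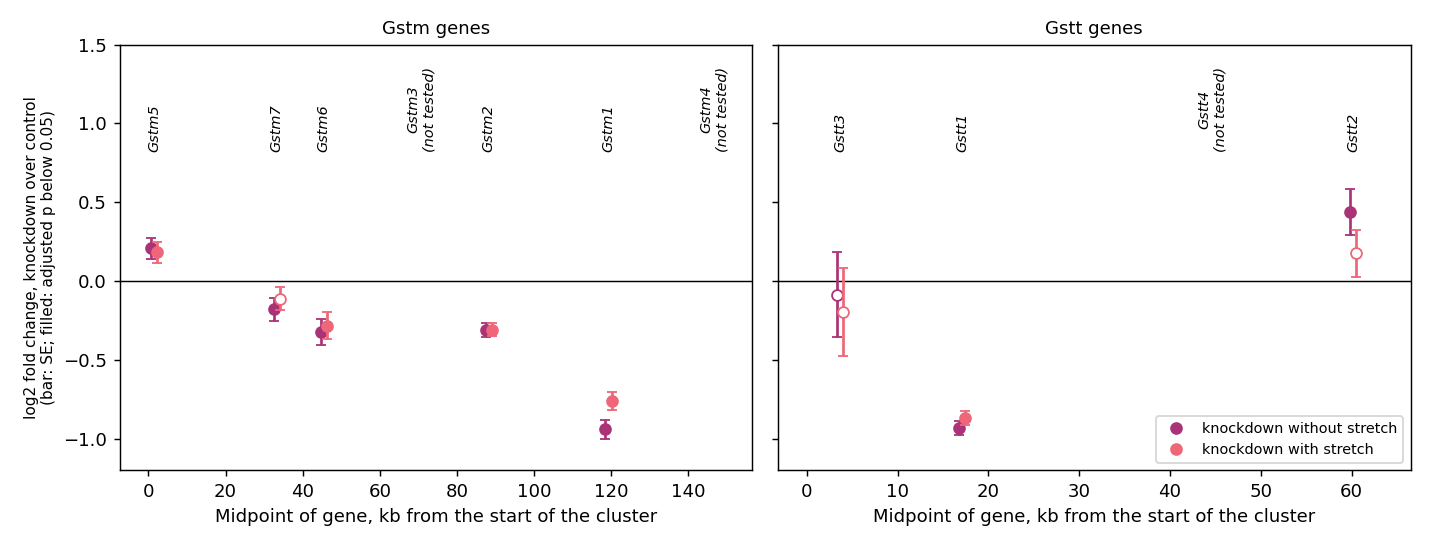
Log2 fold change of knockdown over control for the mu-class (left) and theta-class (right) transferase genes against the midpoint of each gene, in kb from the start of the cluster; purple is without and pink with stretch, bars are SE and filled points have an adjusted p below 0.05. Gstm5 lies above 0 and Gstm1 near -0.94 at 119 kb, and Gstt1 lies at -0.93 between Gstt3 and the untested Gstt4.

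Every gene of NADPH supply in the list was lower in knockdown cells, with and without stretch. The 5 log2 fold changes ran from -0.73 to -0.15 without stretch and from -0.69 to -0.12 with it. Me1, cytosolic malic enzyme (ENSMUSG00000032418, chr9:86581371-86695953, minus strand), fell most. It ran from 360.0 to 404 CPM (median 369) in non-stretched controls and from 217 to 243 CPM (median 223) after knockdown, a log2 fold change of -0.73 (adjusted p = 3.69e-16, SE 0.0352). With stretch it ran from 344 to 401 CPM (median 378) and from 226 to 243 CPM (median 232), a log2 fold change of -0.69 (adjusted p = 1.90e-15, SE 0.0352). The highest knockdown library was far below the lowest control library each time. The antioxidant element printed above for Me1 lies at its start site. Of its 31-base words 39.5% occur in other annotated genes, none of them in the count table, so its level is less certain in the same way as those of Sod1 and Gpx4.

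The oxidative branch of the pentose phosphate pathway makes the NADPH, and its enzymes G6pdx and Pgd fell by 0.26 and 0.27 without stretch and by 0.27 and 0.25 with stretch, with no overlap in any of these comparisons. G6pdx ran from 106 to 117 CPM (median 111) in non-stretched controls and from 86.2 to 97.6 CPM (median 91.8) after knockdown. It shares 17.5% of its 31-base words with other genes, mostly G6pd2. Of the enzymes of the non-oxidative branch, which returns sugars to glycolysis, Tkt (transketolase) ran from 117 to 131 CPM (median 122) and from 88.2 to 98.2 CPM (median 94.7), a log2 fold change of -0.39 (adjusted p = 2.44e-10, SE 0.0354). With stretch it was -0.27 (adjusted p = 3.34e-07, SE 0.0355), and neither comparison showed overlap. Taldo1 (transaldolase) fell least, by 0.15 and 0.12, and 22.2% of its words occur in other annotated genes. The sum of the 4 pathway genes went from 568 ± 19.0 CPM in non-stretched controls to 479 ± 17.2 CPM in non-stretched knockdown cells.

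**Figure D4:**
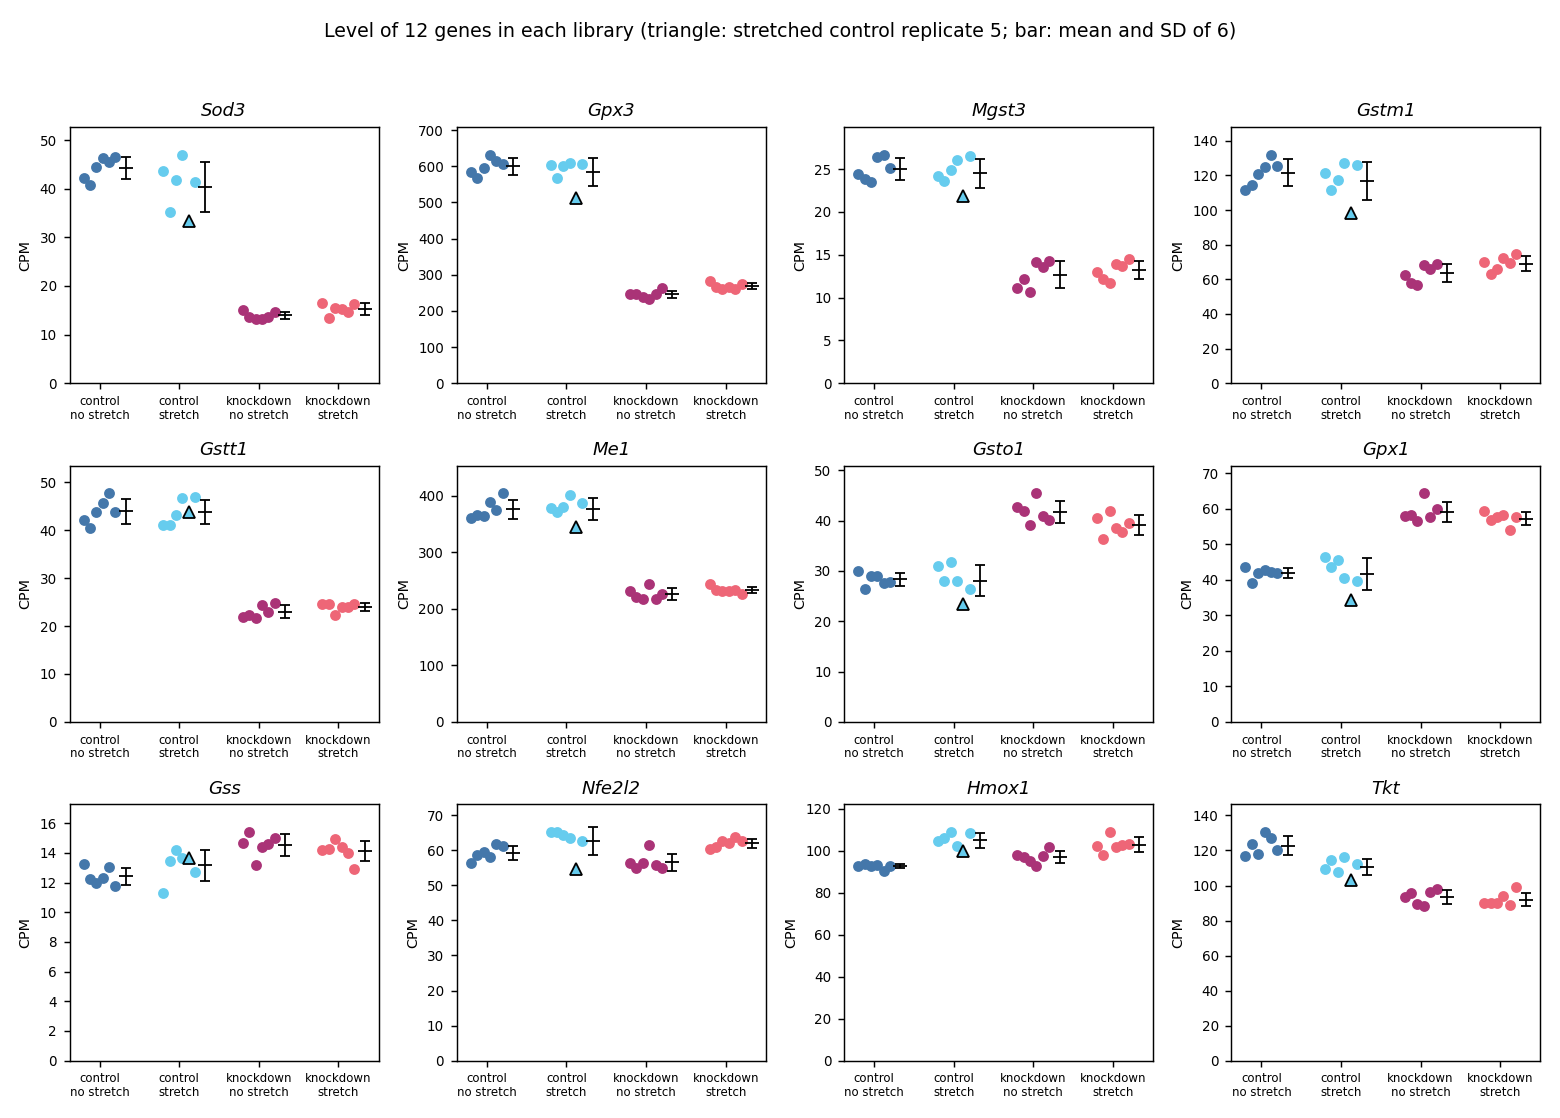
Level in CPM of 12 genes in each of the 24 libraries, by group; bars are mean and SD of 6 libraries, and the triangle is stretched control replicate 5. Sod3, Gpx3, Mgst3, Gstm1, Gstt1 and Me1 do not overlap between control and knockdown libraries and are lower after knockdown, and Gsto1 and Gpx1 are higher.

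A list of 97 other genes of these pathways, also chosen with earlier results known, gave 93 in the table and 82 tested. Without stretch 52 of the 82 were called after knockdown (63.4%, against 57.8% of all tested genes). There 34 were lower (41.5%, against 29.7%) and 18 higher (22.0%, against 28.0%). With stretch 42 were called (51.2%, against 52.0%), 29 lower (35.4%, against 26.9%) and 13 higher (15.9%, against 25.1%). The median log2 fold changes over the 82 were -0.07 and -0.06. Of the genes lower in both comparisons, those with the smallest adjusted p were Idh2, the mitochondrial isocitrate dehydrogenase, Msrb3, a methionine sulfoxide reductase, and Idh1, the cytosolic isocitrate dehydrogenase, another source of NADPH. Idh1 fell from 164 ± 12.8 to 80.4 ± 5.56 CPM without stretch (mean ± SD, n = 6 each), and its log2 fold change was -1.03 (adjusted p = 1.26e-14, SE 0.0569). Idh2 fell by 0.57 and Msrb3 by 0.45. By adjusted p, the leading rises in both comparisons were those of Slc7a11, the cystine importer that feeds glutathione synthesis, and of the sestrins Sesn2 and Sesn3. Slc7a11 rose from 2.76 ± 0.479 to 6.37 ± 0.850 CPM, a log2 fold change of 1.22 (adjusted p = 1.84e-10, SE 0.108), and Sesn2 rose by 0.78. By size the carbonyl reductase gene Cbr3 rose most of the 82, by 1.39 and 1.33. Slc7a11 and Sesn2 were higher in every non-stretched knockdown library than in any non-stretched control.

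Cell type markers moved with the knockdown as well. Of 10 cardiomyocyte markers 8 were lower and 1 higher in each comparison, and their summed level in stretched cells was 1231 to 1265 CPM after knockdown against 2106 to 2622 CPM in controls. Of the 5 tested fibroblast markers 4 were lower in each comparison, with a sum of 56.7 to 69.9 CPM against 154 to 162 CPM without stretch. Endothelial and macrophage marker sums stayed at or below 10.2 CPM in every library. Of the 3 tested genes of each list, the endothelial Tek was lower in both comparisons, with log2 fold changes of -0.68 and -0.62, and the macrophage gene Cd68 was higher, at 0.48 and 0.40. Itgam, another macrophage gene, was higher without stretch alone, at 1.13. The fibroblast genes Lum, Thy1 and Tcf21, the endothelial genes Cdh5, Emcn and Vwf, and the macrophage genes Adgre1, Lyz2, C1qa and Cd14 were too low to be tested, although none was at 0 in all libraries. Ptprc was not analysed here. The smooth muscle sum was 1608 to 1751 CPM against 2348 to 2571 CPM without stretch, but its genes differed. Acta2 was lower in both comparisons, with log2 fold changes of -0.58 and -0.58, as was Tagln, at -0.28 and -0.31. Cnn1 was called in neither, and Myh11 was higher with stretch alone, at 0.59. The part of these markers in the results above was not tested.

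Few of the 43 genes were called after stretch for 60 min, as was the case among all tested genes. In control cells edgeR called 2 of the 43 (4.65%), 1 higher and 1 lower, against 5.95% of all tested genes (2.55% higher and 3.39% lower). The median log2 fold change was -0.01 over the 43 genes and -0.01 over all tested genes. Hmox1, whose product degrades heme, rose. It ran from 90.5 to 93.7 CPM (median 92.9) without stretch and from 99.9 to 109 CPM (median 105) with stretch, a log2 fold change of 0.18 (adjusted p = 0.000167, SE 0.0273). Tkt fell. It ran from 117 to 131 CPM (median 122) without stretch and from 103 to 116 CPM (median 111) with stretch, a log2 fold change of -0.15 (adjusted p = 0.0119, SE 0.0353). Stretched and non-stretched libraries did not overlap for either gene, as was the case for 3.19% of all tested genes (2.03% lower). Without stretched control replicate 5, Nfe2l2 (0.11, adjusted p = 0.0111) and Txnrd1 (0.09, adjusted p = 0.00536) were also called. With it they stood at 0.08 (adjusted p = 0.200, SE 0.0365) and 0.06 (adjusted p = 0.282, SE 0.0307), and over 9 alternatives their adjusted p ranged from 0.00296 to 0.278 and from 0.00245 to 0.357.

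In knockdown cells edgeR called 2 of the 43 genes (4.65%) higher with stretch and 0 lower, against 8.93% of all tested genes (5.32% higher and 3.61% lower). At an unadjusted p below 0.05 there were 6 of the 43 (14.0%) in either direction, fewer than the 22.3% of all tested genes. Nfe2l2 ran from 54.8 to 61.5 CPM (median 56.1) without stretch and from 60.2 to 63.9 CPM (median 62.4) with stretch, a log2 fold change of 0.13 (adjusted p = 0.0210, SE 0.0364). Gpx3 ran from 233 to 262 CPM (median 246) and from 259.6 to 284 CPM (median 266), a log2 fold change of 0.13 (adjusted p = 0.0314, SE 0.0383). Both pairs of ranges overlapped. Hmox1 lay just past the threshold, at 0.08 (adjusted p = 0.0511, SE 0.0272), and was called in 5 of 9 alternatives, within a range of 0.0213 to 0.0940. Txnrd1 was at 0.09 (adjusted p = 0.0784, SE 0.0307) although its groups did not overlap, the only such gene of the 43 in this comparison (5.43% of all tested genes, 1.93% lower), and over 9 alternatives its adjusted p ran from 0.00530 to 0.133. The remaining NRF2 genes did not pass in either kind of cell. Log2 fold changes in control and knockdown cells were 0.01 and -0.04 for Keap1, -0.01 and 0.07 for Nqo1, 0.06 and 0.07 for Gclc, 0.04 and 0.06 for Gclm, and -0.04 and -0.07 for Srxn1. Some markers were called with stretch as well. The cardiomyocyte gene Actc1 rose by 0.48 in control and 0.73 in knockdown cells. Myh6 and Ryr2 rose by 0.40 and 0.15 in knockdown cells, and the fibroblast gene Col1a1 fell by 0.17 in control cells. Cd68 rose by 0.66 in control and 0.58 in knockdown cells and Itgam by 1.03 in control cells. Summed macrophage levels were at most 4.10 CPM. The part of these markers in the stretch results was not tested. The stretch and knockdown comparisons share groups of libraries, so they are not independent of each other.

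For most genes the data bound the stretch response tightly. Of the 41 genes not called in control cells, 37 had a 95% confidence interval that lay within a 1.2-fold change in either direction, and the same held for 37 of the 41 not called in knockdown cells. The widest intervals belonged to the scarcest genes, Gstt3, Gstt2 and Mgst1.

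**Figure D5:**
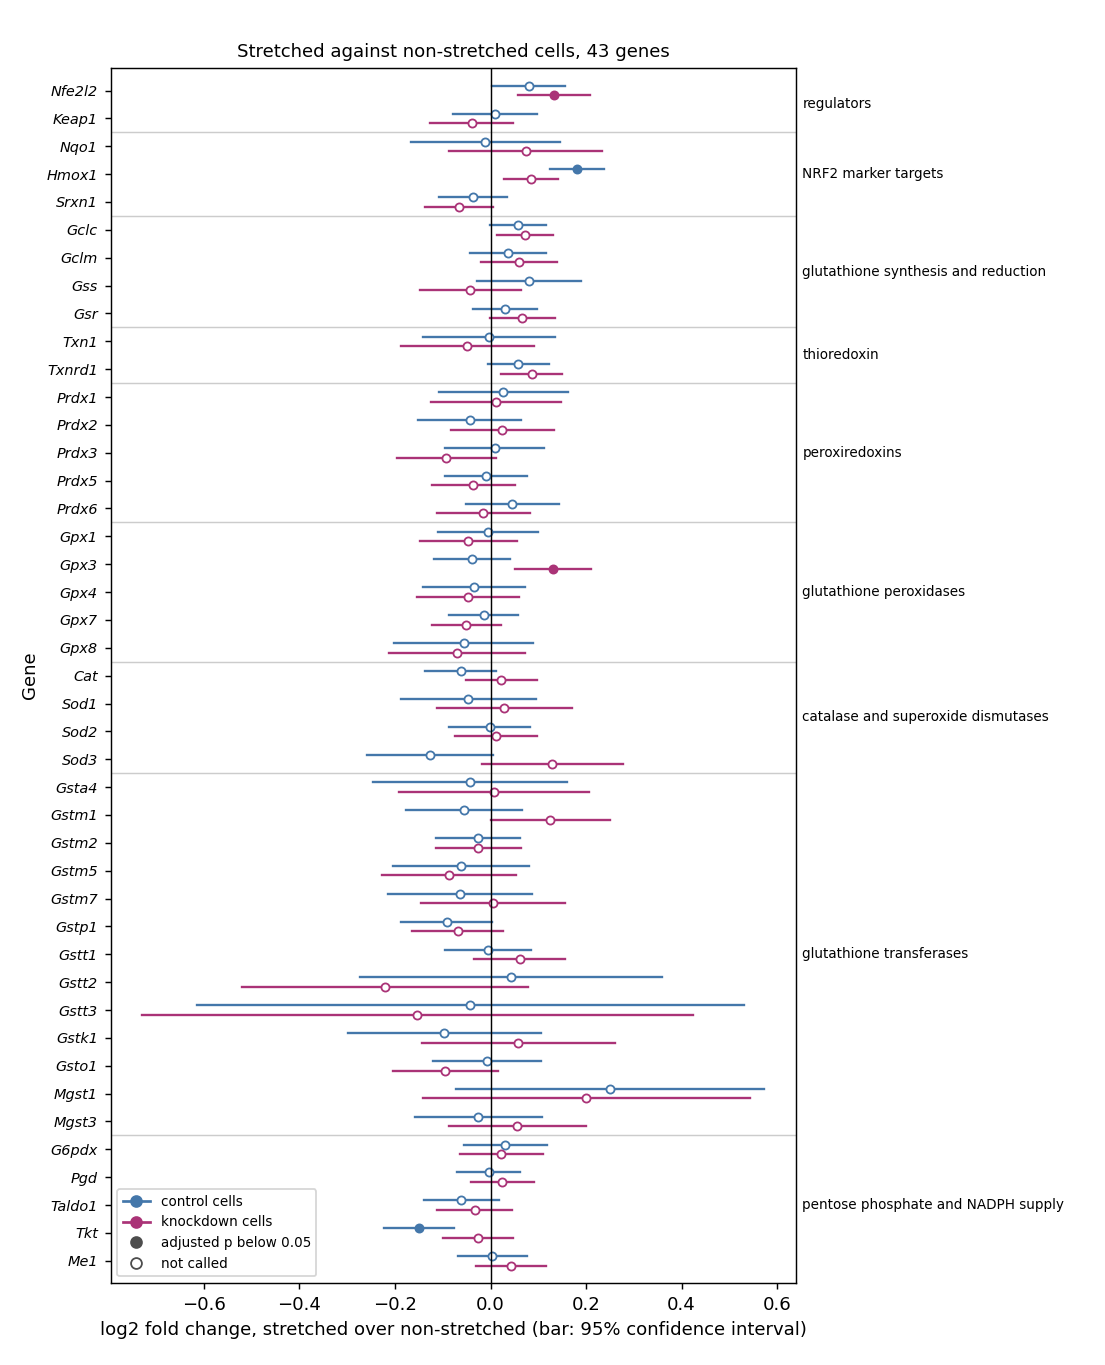
Log2 fold change of stretched over non-stretched cells for the 43 tested genes, grouped by role, in control cells (blue) and knockdown cells (purple); bars are 95% confidence intervals and filled points have an adjusted p below 0.05. Hmox1 and Tkt are filled in control cells and Nfe2l2 and Gpx3 in knockdown cells, and the widest intervals are those of Gstt3, Gstt2 and Mgst1.

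Of the 82 other pathway genes, stretch raised 5 and lowered 3 in control cells and raised 7 and lowered 3 in knockdown cells. These are 9.76% and 12.2% of the 82, against 5.95% and 8.93% of all tested genes. Txnip, which binds and inhibits thioredoxin, was the most clearly lowered. In control cells it fell from 240.4 ± 20.7 to 179.6 ± 16.2 CPM (mean ± SD, n = 6 each), with a log2 fold change of -0.42 (adjusted p = 8.63e-05, SE 0.0585). In knockdown cells it fell from 209.8 ± 10.1 to 138 ± 10.3 CPM, with a log2 fold change of -0.61 (adjusted p = 1.91e-07, SE 0.0587). The small MAF proteins pair with NRF2 on DNA. Their genes Maff and Mafk rose by 0.15 and 0.14 in control cells and by 0.29 and 0.20 in knockdown cells. Tktl1, a transketolase-like gene at under 2 CPM, rose in both kinds of cell. In control cells it ran from 0.164 to 0.401 CPM (median 0.304) without stretch and from 0.681 to 1.43 CPM (median 0.804) with stretch. In knockdown cells it ran from 0.238 to 0.421 CPM (median 0.264) and from 0.854 to 1.45 CPM (median 1.11), and neither pair of ranges overlapped. Its log2 fold changes were 1.62 (adjusted p = 0.000113, SE 0.235) and 1.95 (adjusted p = 2.57e-06, SE 0.231). Other called genes with the smallest adjusted p were Sesn2 (0.34), Sesn1 (-0.15) and Shpk (-0.36) in control cells and Gstz1 (-0.19) and H6pd (-0.16) in knockdown cells, each value a log2 fold change. The call for Shpk was lost in 7 of 9 alternatives (adjusted p from 0.0382 to 0.146) and that for Sesn1 in 2 of 9 (0.0137 to 0.0847). For Gstz1 and H6pd it was lost only with the authors' normalized values and limma, at 0.0633 and 0.0864, the highest of 9 alternatives that went down to 0.00212 and 0.000107.

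The difference between both stretch responses was tested as an interaction. edgeR called 0 of the 43 genes and 0 of the 82 other pathway genes, against 0.0208% of all tested genes. At an unadjusted p below 0.05 there were 5 of the 43, namely Hmox1, Gpx3, Sod3, Gstm1 and Tkt. That is 11.6%, near the 9.40% of all tested genes. DESeq2, which gave 37 of them an adjusted p, also called 0. Of the 82 other pathway genes 10 (12.2%) were at an unadjusted p below 0.05. Gpx3 and Sod3 had the smallest p. For Gpx3 the interaction was 0.17 (adjusted p = 0.273, SE 0.0539), and its stretch response was -0.04 in control and 0.13 in knockdown cells. For Sod3 it was 0.26 (adjusted p = 0.371, SE 0.0948), with responses of -0.13 and 0.13. The stretch responses of Hmox1, Tkt, Nfe2l2 and Gpx3, each called in 1 kind of cell, are thus not shown to differ between control and knockdown cells.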

How the data were processed

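Poly(A) RNA of 24 HL-1 libraries was analysed as gene-level values, in 4 groups of 6 taken from the labels. Estimated counts for 20351 protein-coding genes, deposited as the authors' raw table, were made with kallisto 0.44.0 against GRCm38.p6, per the submitters' processing notes. Neither the annotation release nor the way transcript values were added up per gene is stated in the labels or headers. Only 36.6% of these values were whole numbers (tolerance 1e-09), as kallisto divides reads between similar transcripts, so near-identical genes are uncertain, and all values were rounded before testing. The authors' normalized table holds a signal whose ratio to the raw value differs between genes of 1 library; its method is not stated, and it was used only in an alternative. Per the submitters' processing notes the authors also used DESeq2 1.18.1 in R 3.4.4. The strand setting is likewise not stated.

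Genes were filtered with filterByExpr (minimum count 10, minimum total 15), which left 14411. TMM scaling and edgeR's quasi-likelihood test with robust dispersion were applied to all 24 libraries in a model of 4 groups with 20 residual degrees of freedom, using edgeR 4.0.16, limma 3.58.1, DESeq2 1.42.0 and R 4.3.3. There were 5 contrasts: stretch in each kind of cell, knockdown without and with stretch, and their interaction. Benjamini-Hochberg adjustment ran over all 14411 genes with a threshold of 0.05. SE was taken from the log2 fold change and its F statistic. The calculation was checked on simulated data before use. Of 60 replicate pairs within groups, none agreed within sampling noise, the lowest chi-square per gene being 2.85.

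Gene positions come from GENCODE vM21 on GRCm38, promoters from RefSeq. Shared sequence is the share of a gene's 31-base words found in other annotated genes. The members, the list of other pathway genes and the markers were chosen with earlier results of these data known. Full statistics are given for called members, up to the 6 largest changes per direction and comparison, for 8 genes of the NRF2 system whatever their values, for the 2 smallest p-values of the interaction, and for at most 3 other pathway genes per direction and comparison. Gpx8, Gss, Gstt2, Gstt3, Txn1, Prdx3, Gstm6 and Cbr3 were described in addition, after their values were seen. Alternatives were DESeq2's size factors, DESeq2's test, no filter, a fit to the groups compared alone, the replicate number as a block, the letter in the library code as a factor, leaving out stretched control replicate 5, and the normalized table tested with limma on log2(value + 1). A further alternative, which left out non-stretched knockdown replicate 4 as well, was chosen after seeing the data.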

Additional observations from a re-analysis of the deposited data

Results flagged for a closer look

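In 25 of 172 groups (43 genes in 4 groups of 6 libraries), 1 library stood apart by a gap of more than 0.625 of the range. Chance alone gives about 1 in 20 for any 1 group. The 43 genes were measured in the same 24 libraries, so the 172 groups are not independent. The 25 can therefore not be set against that rate.

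Stretched control replicate 5 accounted for 15 of them and was the lowest of its group in 14. Its levels there were 54.6 CPM for Nfe2l2, 238 CPM for Txn1, 249 CPM for Txnrd1, 201 CPM for Prdx2, 70.5 CPM for Prdx3 and 122 CPM for Prdx5. The same library had 238 CPM of Gpx4, 21.4 CPM of Gpx8, 414 CPM of Sod1, 146 CPM of Sod2 and 33.8 CPM of Gstm5, and 157 CPM of Gstp1, 102 CPM of Pgd and 186 CPM of Taldo1. For Txn1 the other 5 libraries ran from 349 to 356 CPM, the widest such gap, and for Sod1 from 589 to 639 CPM. Keap1 was the exception, highest at 84.8 CPM against 65.3 to 71.9 CPM.

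Non-stretched knockdown replicate 4 was the highest of its group for Nfe2l2 (61.5 CPM), Gclm (86.6 CPM), Prdx3 (97.0 CPM) and Mgst1 (1.59 CPM), where the others reached 56.3, 79.2, 82.3 and 0.931 CPM. In non-stretched controls, replicate 5 was lowest for Hmox1 at 90.5 CPM and for Gstp1 at 183 CPM, and replicate 2 was lowest for Gpx1 at 39.2 CPM. Gstm7 was highest at 6.04 CPM in non-stretched knockdown replicate 6. In stretched knockdown cells Gstt1 was lowest at 22.3 CPM in replicate 3 and Gstt2 highest at 1.05 CPM in replicate 4.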

How the results depend on the processing

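Over 9 alternatives (8 for the interaction) the members' calls lasted in all for 2 of 2 genes and 2 of 2 genes under stretch (control and knockdown cells), for 33 of 34 after knockdown without stretch (Gstm7 was lost) and for 26 of 29 with stretch (Prdx3, Sod1 and Gstm5 were lost). Members called after knockdown numbered 33 to 36 without stretch and 28 to 33 with stretch, and for the interaction 0 in every alternative. Stretch calls rose to 4 members in control cells without stretched control replicate 5 and when non-stretched knockdown replicate 4 was left out too. In knockdown cells they rose to 4 under both settings and under DESeq2's test. Among the genes given with values, direction changed only for some that did not pass the test. For stretch in control cells the log2 fold changes were 0.0031 (Nqo1) and 0.0108 (Txn1) with no filter, 0.00656 (Txn1) with the compared groups alone and 0.304 (Gstt3) and -0.00315 (Prdx3) with the authors' normalized values. Without stretched control replicate 5 they were 0.0288 (Nqo1), 0.0751 (Txn1), 0.00197 (Gpx8) and -0.0426 (Keap1), and without both libraries 0.0202, 0.0664 and -0.0513 (Nqo1, Txn1, Keap1). For stretch in knockdown cells Gss was 0.00205 with the normalized values. For knockdown without stretch Gclc was 0.0224, Keap1 0.0193 and Prdx3 0.00067 with no filter, Keap1 3.9e-05 and Gstt3 0.126 with the normalized values, and Keap1 0.00718 without both libraries. For knockdown with stretch Gclc and Txn1 were 0.0104 and 0.00675 with DESeq2's size factors, 0.00947 and 0.00672 with its test, 0.0190 and 0.0143 with no filter, 0.0101 and 0.00654 with the compared groups alone, and 0.0156 and 0.0230 with the normalized values. Without both libraries Gclc was 0.0106. Nfe2l2 was 0.00514 with no filter and 0.00602 with the normalized values. The interaction was -0.00346 (Gclc, no filter), 0.00261 (Keap1) and -0.00502 (Txnrd1) without stretched control replicate 5, -0.0100 (Txnrd1) without both libraries, and 0.0157 (Gpx8) with the normalized values. The cause was not tested.

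Over all genes, stretch in control cells gave 857 calls, but 377 with the compared groups alone, 558 with the normalized values, 2023 without stretched control replicate 5 and 2933 without both libraries. The lower share of those calls was 57.1%, and 39.3% with no filter and 41.1% with the compared groups alone. Stretch in knockdown cells gave 1287 calls and 2216 without both libraries. The interaction gave 3 calls, 126 with DESeq2's test, 45 with the code letter, 109 and 163 without 1 and both libraries, and 1 with the normalized values. The labels do not say that replicate numbers pair samples across groups. Over 36 same-numbered pairs the correlation of deviations ran from -0.0638 to 0.147 (median 0.0150), and 3 were over 0.1. Over 180 differently numbered pairs it ran from -0.178 to 0.267 (median -0.00523), and 11 were over 0.1. Low correlations cannot show whether samples were paired by design. With the replicate number as a block, 2 and 3 members were called under stretch (control and knockdown cells), 34 and 29 after knockdown (without and with stretch) and 0 for the interaction. Over all genes the block gave 946, 1403, 8378, 7567 and 9 calls in that order. Depth limits the scarcest genes most, Gstt3, Gstt2 and Mgst1.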
